A study of Mus musculus with 6 samples.

Results

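The Hox genes were taken as every symbol in the platform annotation made of Hox, a cluster letter from a to d and a number, where 1 probe set named that gene alone. This gave 37 Hox genes among 19937 genes tested. They were 10 genes of the HoxA cluster and 9 each of HoxB, HoxC and HoxD. Each of the 37 had 1 such probe set, so no choice between probe sets was made. Hoxb8, listed only at a probe set that also names Hoxb7, is not among them. Hox genes encode homeodomain transcription factors that give cells of the embryo their position along the head-to-tail axis. They lie in 4 clusters, and genes in the same relative place in different clusters, called paralogues, share a number from 1 to 13. Low numbers are first expressed early and towards the head, and high numbers later and towards the tail. In embryonic stem cells the clusters are known to be held largely silent by Polycomb complexes, and Wnt signals and Cdx factors are known activators in the posterior embryo.

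The data were log2 signals from 6 one-colour Affymetrix arrays, 3 of cells treated with CHIR99021 and 3 of cells treated with XAV939. CHIR99021 inhibits the kinase GSK3 and so stabilises β-catenin, the effector of Wnt signalling. XAV939 inhibits tankyrases and lowers β-catenin. Treatment lasted 24 h. The CHIR99021 dose was 3 µM, and the sources disagree on XAV939, with 3 µM per sample and 1 µM in the protocol text. All cells were of a V6.5 mouse embryonic stem cell line named Ctnnb1-BioFLneo;BirA, whose Ctnnb1 gene carried a knocked-in biotin and 3xFLAG tag. They grew in serum with LIF on feeders from DR4 mice. No untreated array was analysed, so no difference can be assigned to 1 of the compounds. Nothing in the labels shows that the replicates came from separate cultures, so p-values measure only the spread between these arrays, which may be technical.

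Array medians lay between 5.67 and 5.71, and Axin2, a feedback target of β-catenin, averaged 7.48 ± 0.06 with CHIR99021 and 5.57 ± 0.19 with XAV939 (SD, n = 3 each). All 10 embryonic stem cell markers had signals above the median of all genes. XAV939 replicate 1 stood apart from the other XAV939 arrays in the Hox genes. It was the highest of the 3 XAV939 arrays for 24 of the 37 Hox genes, against 40.8% of all genes, and its Hox signals lay on average 0.067 above the group mean. Counts that rest on this array are given with and without it.

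With CHIR99021, 4 Hox genes rose relative to XAV939 and none fell, and all 4 that rose were of the HoxD cluster. They were Hoxd9 (1.34-fold), Hoxd10 (1.29-fold), Hoxd8 (1.28-fold) and Hoxd4 (1.25-fold). The call was an adjusted p under 0.05 in limma's moderated test over all genes. The background was 5.31% of all genes higher and 4.34% lower, so 4 of 37 Hox genes compares with 9.65% of all genes called in either direction. Counted over the whole family and in either direction, the share of called genes, 10.8%, was near that background. All 4 calls were upward, where 5.31% of all genes were called higher. Most Hox probe sets were dim, and among all genes below the median signal 3.37% were called, 1.75% higher. In HoxD 4 of 9 genes rose, and in HoxA, HoxB and HoxC 0 of 28 did. That all calls lay in 1 cluster rested on XAV939 replicate 1. Without it 5 HoxD genes, 3 HoxA genes and 1 HoxB gene passed, where 11.3% of all genes were called. No Hox gene had an unadjusted p under 0.05 downward, where 9.4% of all genes did, and 11 of 37 had one upward, where 11.2% of all genes did.

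The differences were small and mostly of 1 sign. The log2 difference, CHIR99021 minus XAV939, was positive for 33 of 37 Hox genes, against 53% of all genes, with a median of 0.068 against 0.0066 for all genes. It was between -0.092 (Hoxb4) and 0.42 (Hoxd9). The number of positive differences was 28 without XAV939 replicate 3, 29 without CHIR99021 replicate 3 and 32 to 34 without any other 1 array. The 28 Hox genes outside HoxD averaged 5.199 on XAV939 replicate 1, against 5.197 to 5.211 on the CHIR99021 arrays. On XAV939 replicates 2 and 3 they averaged 5.111 and 5.078. The arrays of the treatments did not overlap for 12 Hox genes, all higher with CHIR99021, where 14.1% of all genes were higher without overlap and 11% lower. Without XAV939 replicate 1 the median Hox difference was 0.11, and 9 Hox genes rose, where 5.67% of all genes were called higher.

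**Figure D1:**
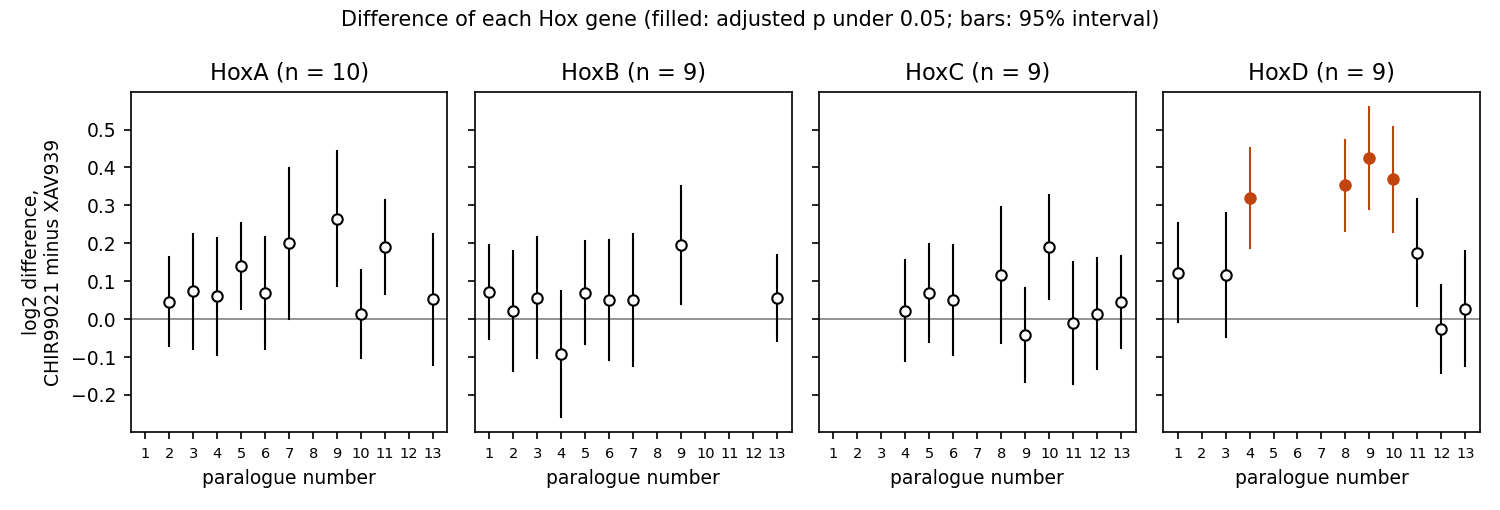
Log2 difference (CHIR99021 minus XAV939, vertical axis) of each Hox gene against its paralogue number, in 1 panel per cluster. Points are differences of group means of 3 arrays each, bars are 95% intervals of the limma fit, and filled points passed an adjusted p of 0.05. The filled points are Hoxd4, Hoxd8, Hoxd9 and Hoxd10, between 0.32 and 0.42, and the other 33 genes are open.

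Most Hox probe sets were dim. For 32 of the 37 the mean signal lay below the median of all genes, and for 8 below the 25th percentile. Such signals say little about the amount of RNA, since the deposited table has no detection call and levels of different probe sets are not amounts of RNA. Among all genes below the median signal 3.37% were called in either direction and 1.75% higher, and among the 32 Hox genes there 3 were called. These 3 were Hoxd8, Hoxd9 and Hoxd10. The brightest probe set of each cluster was that of Hoxa4 (mean 6.16), Hoxb7 (6.48), Hoxc8 (5.48) and Hoxd4 (6.13), and the dimmest that of Hoxa2 (3.75), Hoxb4 (4.95), Hoxc4 (4.09) and Hoxd8 (4.39). Hoxd8 and Hoxd4, which both rose, are thus the dimmest and the brightest HoxD probe sets.

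**Figure D2:**
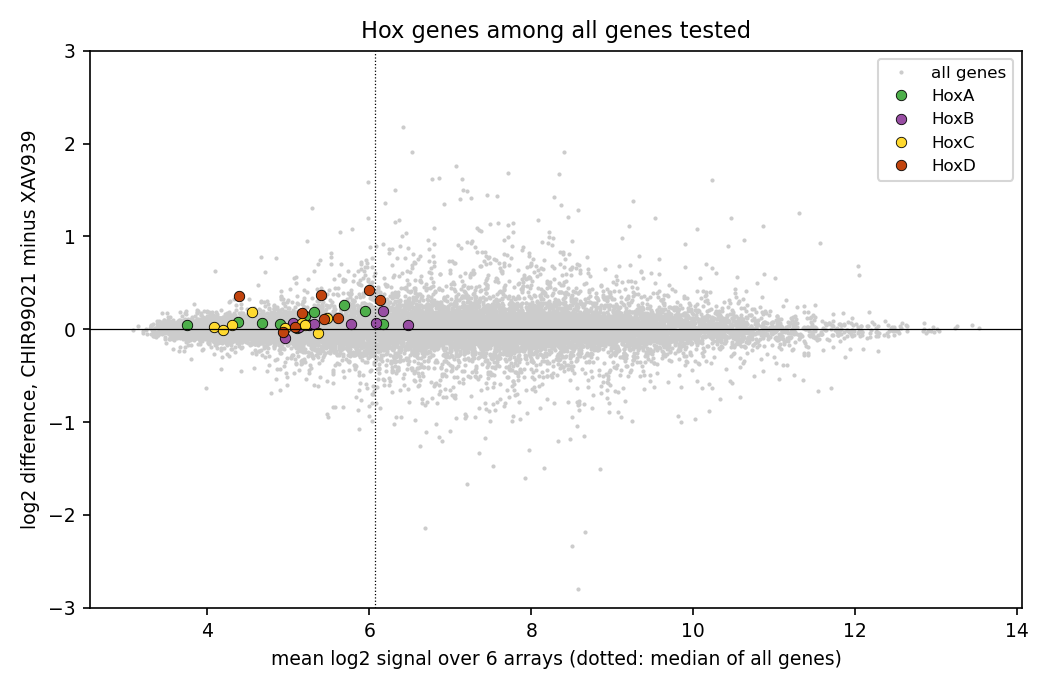
Log2 difference (CHIR99021 minus XAV939, vertical axis) against mean log2 signal over the 6 arrays (horizontal axis) for all 19937 genes in grey and the 37 Hox genes coloured by cluster. The dotted line marks the median signal of all genes, and 32 of the 37 Hox genes lie to its left.

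Hoxd9, a paralogue of the trunk-to-tail group that also takes part in limb patterning, had log2 signals of 6.24, 6.25 and 6.14 with CHIR99021, against 5.87, 5.76 and 5.72 with XAV939. Every CHIR99021 array was above every XAV939 array. The difference was 0.42 ± 0.06 (SE, n = 3 each, adjusted p = 0.00107), the largest of the Hox genes. Hoxd10, its neighbour, which is known for patterning of lumbosacral motor neurons and the hindlimb, had 5.49, 5.58 and 5.69 with CHIR99021, against 5.27, 5.19 and 5.20 with XAV939. The groups again did not overlap, and CHIR99021 replicate 3 was the highest array. The difference was 0.37 ± 0.06 (SE, adjusted p = 0.00343).

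Hoxd8, a trunk-level paralogue, had 4.55, 4.57 and 4.57 with CHIR99021, against 4.24, 4.26 and 4.13 with XAV939. The CHIR99021 arrays lay close together and above all XAV939 arrays, at a dim probe set on the 15.0th percentile of signal. The difference was 0.35 ± 0.05 (SE, adjusted p = 0.00177). Hoxd4, an anterior paralogue known to be induced by retinoic acid in the hindbrain, had 6.27, 6.38 and 6.22 with CHIR99021, against 6.03, 5.94 and 5.94 with XAV939. Its groups did not overlap, and XAV939 replicate 1 was the highest array of its group. The difference was 0.32 ± 0.06 (SE, adjusted p = 0.00623). The 4 genes kept their call in every alternative in which they were tested, among them leaving out each array in turn, an adjusted p of 0.01 and adjustment over all 34760 probe sets. With the replicate number as a block the same 4 of 37 passed, where 7.91% of all genes were called. Without genes below the 50th percentile of signal 5 Hox genes were tested and only Hoxd4 passed, where 9.74% of genes were called higher.

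**Figure D3:**
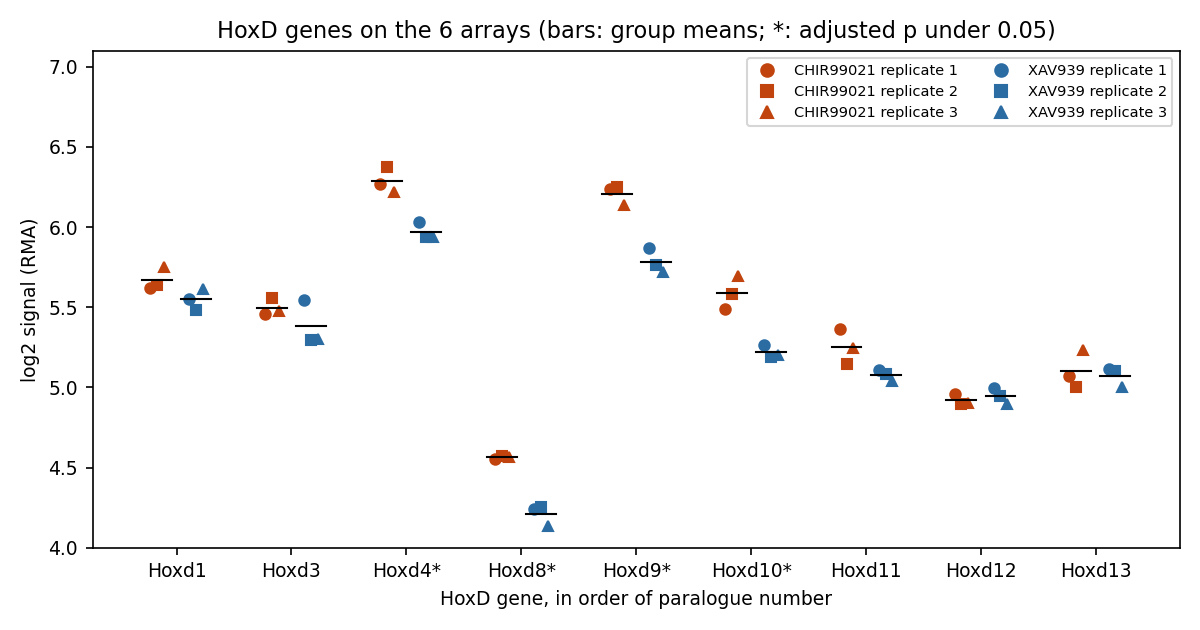
Log2 signal (vertical axis) of the 9 HoxD genes on each of the 6 arrays, with CHIR99021 left of XAV939 for each gene. Points are single arrays, short bars are group means, and stars mark genes with an adjusted p under 0.05. The groups of Hoxd1, Hoxd4, Hoxd8, Hoxd9, Hoxd10 and Hoxd11 do not overlap, whereas those of Hoxd3, Hoxd12 and Hoxd13 do.

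The 4 genes follow each other in HoxD, which has no member numbered 2, 5, 6 or 7, and genes on either side of them differed less. Towards the low-numbered end, Hoxd3 differed by 0.12 ± 0.07 (SE, adjusted p = 0.457) and Hoxd1 by 0.12 ± 0.06 (adjusted p = 0.285). The groups of Hoxd1 did not overlap. Hoxd3 had 5.46, 5.56 and 5.48 with CHIR99021, against 5.55, 5.29 and 5.31 with XAV939. Its groups overlapped only through XAV939 replicate 1, and without that array it passed with a difference of 0.20 (adjusted p = 0.0492). Towards the high-numbered end, Hoxd11 had 5.36, 5.15 and 5.25 with CHIR99021, against 5.11, 5.08 and 5.04 with XAV939. Its groups did not overlap, but the difference of 0.18 ± 0.06 (SE) did not pass (adjusted p = 0.133). Hoxd12 and Hoxd13, the genes of the digits and the most posterior axis, differed by -0.026 ± 0.052 and 0.027 ± 0.068 (SE), with 95% intervals of -0.14 to 0.09 and -0.12 to 0.18. Averaged over its 9 genes, HoxD had log2 signals of 5.45 to 5.47 on the CHIR99021 arrays, against 5.21 to 5.30 on the XAV939 arrays. Set against the mean of the other 28 Hox genes on the same array, HoxD stood 0.248 to 0.259 higher with CHIR99021 and 0.104 to 0.127 higher with XAV939. XAV939 replicate 1 does not stand apart in that measure towards the CHIR99021 arrays, since it had the lowest value. Whether the response of HoxD differs from that of the other clusters was not tested. Some annotated genes overlap in the RefSeq table: Hoxd4 lies inside the span of Hoxd3, Hoxd10 overlaps Hoxd11, and Hoxd8 lies inside the non-coding gene Gm38462. Whether the probe sets tell these transcripts apart was not tested.

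The 4 HoxD genes that rose have different sequences before their transcript starts. The 250 bases before 1 such start of each are shown because the genes moved together, taken from RefSeq on GRCm38.p6 and read 5′ to 3′ in the direction of the gene. For Hoxd4, Hoxd8 and Hoxd9 that start is the first base of the annotated gene. For Hoxd10 it lies inside the annotated gene, which begins farther upstream, so its window is not the sequence before the gene's first base. Capitals mark matches, on either strand, to CTTTGA, the core of the motif of the TCF/LEF partners of β-catenin, to TTTATG, a motif bound by Cdx factors, or to AGGTCA, the half-site of retinoic acid receptors.
Hoxd4 (chr2:74721728-74721977, plus strand): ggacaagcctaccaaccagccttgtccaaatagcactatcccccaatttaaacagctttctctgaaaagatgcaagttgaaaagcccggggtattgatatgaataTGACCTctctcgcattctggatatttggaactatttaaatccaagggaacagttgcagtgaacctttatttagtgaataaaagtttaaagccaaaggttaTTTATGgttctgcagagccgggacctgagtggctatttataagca
Hoxd8 (chr2:74704365-74704614, plus strand): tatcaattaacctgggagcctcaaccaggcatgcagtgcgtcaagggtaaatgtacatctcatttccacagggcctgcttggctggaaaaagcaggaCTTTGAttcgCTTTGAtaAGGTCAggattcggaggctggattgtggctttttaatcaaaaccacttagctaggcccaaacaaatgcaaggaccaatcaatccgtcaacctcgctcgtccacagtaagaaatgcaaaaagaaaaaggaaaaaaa
Hoxd9 (chr2:74697513-74697762, plus strand): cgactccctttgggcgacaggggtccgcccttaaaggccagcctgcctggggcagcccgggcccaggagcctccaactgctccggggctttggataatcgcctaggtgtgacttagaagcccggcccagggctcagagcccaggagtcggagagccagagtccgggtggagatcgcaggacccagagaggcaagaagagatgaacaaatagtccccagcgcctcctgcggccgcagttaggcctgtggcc
Hoxd10 (chr2:74691641-74691890, plus strand): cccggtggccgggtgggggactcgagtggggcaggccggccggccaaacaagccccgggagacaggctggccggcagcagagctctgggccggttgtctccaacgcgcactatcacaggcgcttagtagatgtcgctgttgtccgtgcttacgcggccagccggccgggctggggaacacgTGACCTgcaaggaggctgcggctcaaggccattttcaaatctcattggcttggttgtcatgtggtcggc
Hoxd8 held CTTTGA at 2 places on the strand shown, 153 to 148 and 143 to 138 bases before the start, followed by AGGTCA at 135 to 130. Hoxd4 held TTTATG 45 to 40 bases before the start and AGGTCA on the opposite strand at 145 to 140. Hoxd10 held only AGGTCA, on the opposite strand 69 to 64 bases before its internal start, and Hoxd9 none of the motifs. No matches overlapped each other. Of 37 Hox genes 21 had a promoter in the RefSeq table, with 23 windows, and all 9 HoxD genes were among them. CTTTGA occurred in 3 of these 23 windows (13%) and in 13.8% of all 32851 windows of the same length. TTTATG occurred in 4 (17.4%) and 10.8%, and AGGTCA in 6 (26.1%) and 14%. Outside Hoxd8, CTTTGA was found in Hoxa10 and Hoxd12, whose differences were 0.014 and -0.026. CG dinucleotides numbered 3 in the window of Hoxd4, 6 in Hoxd8, 13 in Hoxd9 and 20 in Hoxd10, with a median of 13 in the Hox windows and 6 in all windows. A match describes letters in the sequence and does not show that a factor binds there.

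In HoxA all 10 differences were positive, with a median of 0.071. None passed limma's adjusted threshold, while 4 had an unadjusted p under 0.05 upward, where 11.2% of all genes did. Without XAV939 replicate 1 the HoxA median was 0.12 and 3 of 10 genes passed. The median was 0.11 without CHIR99021 replicate 2 and 0.058 without XAV939 replicate 2. Hoxa9, a gene of the trunk-to-tail group that is also important in blood progenitors, had 5.84, 5.89 and 5.74 with CHIR99021, against 5.73, 5.53 and 5.42 with XAV939. The groups were separated by a narrow gap between CHIR99021 replicate 3 and XAV939 replicate 1. The difference was 0.26 ± 0.08 (SE, adjusted p = 0.0701), and 0.35 without XAV939 replicate 1 (adjusted p = 0.00783). Hoxa11, which patterns the zeugopod of the limb and the uterus, had 5.42, 5.44 and 5.36 with CHIR99021, against 5.27, 5.24 and 5.14 with XAV939. Its groups did not overlap and its difference was 0.19 ± 0.06 (SE, adjusted p = 0.0627). It passed after repeated quantile normalisation (adjusted p = 0.0490) and without XAV939 replicate 1 (adjusted p = 0.0389).

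Hoxa5, which is needed for lung and cervical skeleton development, had 5.27, 5.28 and 5.25 with CHIR99021, against 5.13, 5.17 and 5.08 with XAV939. The groups did not overlap, but the difference of 0.14 ± 0.05 (SE) did not pass (adjusted p = 0.135). Hoxa7 had 6.04, 6.05 and 6.06 with CHIR99021, against 6.09, 5.75 and 5.71 with XAV939. XAV939 replicate 1 was above all CHIR99021 arrays while the other XAV939 arrays were well below them, and the difference was 0.20 ± 0.09 (SE, adjusted p = 0.239), or 0.32 without that array (adjusted p = 0.00353). The remaining HoxA genes, Hoxa2, Hoxa3, Hoxa4, Hoxa6, Hoxa10 and Hoxa13, differed by 0.014 to 0.073, and the groups overlapped for each of them. Hoxa10, between Hoxa9 and Hoxa11, had the smallest of these differences, 0.014 ± 0.053 (SE), with a 95% interval of -0.10 to 0.13.

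In HoxB 8 of 9 differences were positive, with a median of 0.056. None passed in limma, while 1 had an unadjusted p under 0.05 upward, where 11.2% of all genes did. The HoxB median was 0.0072 without XAV939 replicate 3 and 0.085 without replicate 1. The gene with an unadjusted p under 0.05 was Hoxb9, the paralogue of Hoxd9 and Hoxa9, with 6.32, 6.22 and 6.25 with CHIR99021, against 6.19, 6.10 and 5.93 with XAV939. The groups did not overlap, and the difference of 0.20 ± 0.07 (SE, adjusted p = 0.128) passed only when XAV939 replicate 1 was left out (0.25, adjusted p = 0.0391). Hoxb13 also had groups that did not overlap, with a difference of 0.056 ± 0.051 (SE). Hoxb1, a hindbrain gene with a known retinoic acid response element, had 6.04, 6.17 and 6.15 with CHIR99021, against 6.05, 6.02 and 6.08 with XAV939. Its groups overlapped, and the difference was 0.071 ± 0.056 (SE, adjusted p = 0.575). Hoxb4, known for expanding blood stem cells when overexpressed, had the most negative Hox difference, -0.092 ± 0.075 (SE, adjusted p = 0.592), with 4.84, 4.97 and 4.90 with CHIR99021, against 5.15, 4.86 and 4.98 with XAV939. Its value rested on XAV939 replicate 1, without which it was -0.016. Hoxb2, Hoxb3, Hoxb5, Hoxb6 and Hoxb7 differed by 0.022 to 0.070, each with overlap.

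In HoxC 7 of 9 differences were positive, with a median of 0.046. None passed in limma, while 1 had an unadjusted p under 0.05 upward, where 11.2% of all genes did. The HoxC median was 0.021 without XAV939 replicate 2, 0.030 without CHIR99021 replicate 2 and 0.068 without replicate 1 of either treatment. Hoxc10, the paralogue of Hoxd10 and known from the hindlimb and lumbar spinal cord, had 4.605, 4.57 and 4.76 with CHIR99021, against 4.43, 4.45 and 4.49 with XAV939. The groups did not overlap, and the difference was 0.19 ± 0.06 (SE, adjusted p = 0.0885). Hoxc8, a thoracic gene, had 5.56, 5.61 and 5.45 with CHIR99021, against 5.59, 5.41 and 5.27 with XAV939. The groups overlapped through XAV939 replicate 1, and the difference was 0.12 ± 0.08 (SE, adjusted p = 0.507). It was 0.20 without that array (adjusted p = 0.0978), 0.040 without XAV939 replicate 3, and 0.245 without both XAV939 replicate 1 and CHIR99021 replicate 3, where it passed (adjusted p = 0.0442). Hoxc9, in the same paralogue group as Hoxd9, differed by -0.042 ± 0.056 (SE, adjusted p = 0.777), with a 95% interval of -0.17 to 0.08. Hoxc4, Hoxc5, Hoxc6, Hoxc11, Hoxc12 and Hoxc13 differed by -0.0099 to 0.068, each with overlap.

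**Figure D4:**
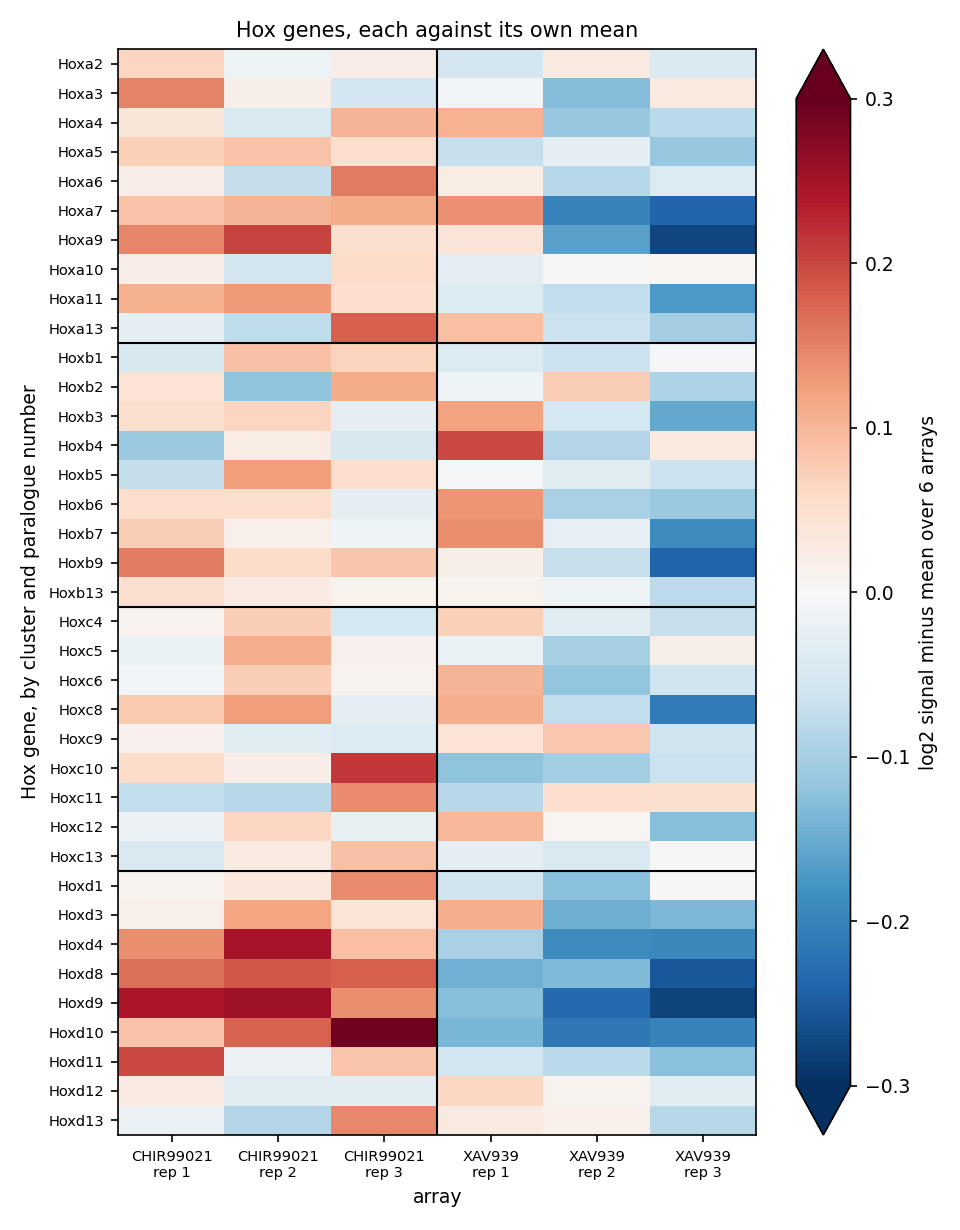
Log2 signal of each Hox gene (rows, by cluster and paralogue number) on each array (columns, CHIR99021 on the left) minus that gene's mean over the 6 arrays. Colour runs from -0.3 (blue) to 0.3 (red). Hoxd4, Hoxd8, Hoxd9 and Hoxd10 are red on all 3 CHIR99021 arrays and blue on all 3 XAV939 arrays, while several HoxA, HoxB and HoxC genes are red on XAV939 replicate 1.

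Read across clusters, the paralogue groups with the highest median differences were number 8 (0.24, 2 genes) and number 9 (0.23, 4 genes), followed by number 10 (0.19, 3 genes) and number 11 (0.18, 3 genes). In group 9 the differences were 0.42 for Hoxd9, 0.26 for Hoxa9, 0.20 for Hoxb9 and -0.042 for Hoxc9. The remaining groups had medians between -0.0060 (number 12, 2 genes) and 0.12 (number 7, 2 genes). Of the genes numbered 1 to 4, 1 of 11 rose, of those numbered 5 to 8, 1 of 10, and of those numbered 9 to 13, 2 of 16, with medians of 0.061, 0.070 and 0.054. Unadjusted p-values under 0.05 were found for 1 of 11, 3 of 10 and 7 of 16 genes of these ranges, and groups that did not overlap for 2, 2 and 8 genes. All were higher with CHIR99021, where 11.2% of all genes had such a p upward and 14.1% were higher without overlap. Over these ranges the medians and calls thus showed no order, although number by number the medians were highest for 8 to 11. The counts of unadjusted p-values and of groups without overlap were highest for the numbers 9 to 13. These are descriptions of few genes, and a difference between groups was not tested.

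None of the genes compared on either side of HoxD passed the threshold. The 3 nearest protein-coding genes with a value on each side of HoxD, Evx2, Lnpk and Atp5g3 beyond Hoxd13 and Mtx2, Nfe2l2 and Agps beyond Hoxd1, gave 0 of 6 past the threshold in limma. They lay 6.7 to 756 kb from the cluster on the Hoxd13 side and 60.7 to 1070 kb on the Hoxd1 side. Among these only Mtx2, at 60.7 kb, had an unadjusted p under 0.05 (0.18 ± 0.08, SE, adjusted p = 0.202). Evx2, an even-skipped homeobox gene and the next gene after Hoxd13, differed by 0.013 ± 0.081 (SE), with values of 6.49 ± 0.12 with CHIR99021 and 6.48 ± 0.14 with XAV939 (SD, n = 3 each). Around the 4 clusters together, 2 of 24 neighbours rose and 2 fell (16.7%), with a median difference of -0.012. This is near the 15.9% called among all genes above the median signal, where 20 of the 24 lie. Evx1, the even-skipped gene next to Hoxa13 and a gene of the primitive streak, rose by 0.44 ± 0.08 (SE, adjusted p = 0.00477). It had 5.83, 5.64 and 5.92 with CHIR99021, against 5.46, 5.28 and 5.33 with XAV939, without overlap, although the HoxA genes beside it did not pass. The other neighbour that rose was Atf7, 296 kb from HoxC (0.24 ± 0.06, SE). Those that fell were Calcoco2, 69.8 kb from HoxB (-0.40 ± 0.07), and Snx10, 565 kb from HoxA (-0.24 ± 0.06). Atf7 no longer passed when any 1 array other than CHIR99021 replicate 1 was left out (adjusted p = 0.0542 to 0.116), nor after centring the arrays (0.0535). That of Snx10 was lost without any 1 of the CHIR99021 arrays or without XAV939 replicate 2 or 3 (0.0664 to 0.102). Adjusted over all probe sets neither passed (0.0988 for Atf7 and 0.0896 for Snx10).

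Non-coding RNAs of the clusters gave 1 of 8 measured genes higher (12.5%) and none lower in limma, against 5.31% of all genes higher, and none had an unadjusted p under 0.05 downward. Mir196a-1, which lies in HoxB between Hoxb9 and Hoxb13 and whose mature miRNA is known to target Hoxb8, had 4.92, 4.80 and 4.88 with CHIR99021, against 4.71, 4.63 and 4.598 with XAV939. The groups did not overlap, and the difference was 0.22 ± 0.06 (SE, adjusted p = 0.0369). The call was lost without any 1 of the CHIR99021 arrays, or without XAV939 replicate 2 or 3 (adjusted p = 0.0573 to 0.146), and when adjusted over all probe sets (0.112). The mature sequences of the Hox-cluster miRNAs measured are shown from RefSeq on GRCm38.p6, since members of a family come from different clusters. Capitals mark the seed, bases 2 to 8, which is the same in the miR-196 pair and the same in the miR-10 pair.
mmu-miR-196a-5p (Mir196a-1, chr11:96265187-96265208, plus strand): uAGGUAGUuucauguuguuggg
mmu-miR-196b-5p (Mir196b, chr6:52230129-52230150, minus strand): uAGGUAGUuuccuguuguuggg
mmu-miR-10a-5p (Mir10a, chr11:96317186-96317208, plus strand): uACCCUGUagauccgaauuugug
mmu-miR-10b-5p (Mir10b, chr2:74726074-74726096, plus strand): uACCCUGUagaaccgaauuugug
Mir196a-2, in HoxC, encodes the same mature sequence as Mir196a-1 and differed by -0.035 ± 0.072 (SE) at its own probe set. Mir196b in HoxA differed by 0.030, Mir10a in HoxB by 0.018 and Mir10b, which lies inside Hoxd4, by 0.10 ± 0.06 (SE, adjusted p = 0.372). The array probes do not tell a mature miRNA from its precursor. Hoxd3os1, a non-coding gene that overlaps Hoxd3, differed by 0.042 ± 0.061 (SE) with mean signals of 4.87 and 4.83.

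The Cdx genes are among the known activators of Hox genes, and all 3 rose, where 5.31% of all genes were called higher. Cdx1 and Cdx2 had log2 differences of 1.62 ± 0.18 and 1.63 ± 0.10 (SE), and Cdx4, which acts with Wnt signals in the posterior embryo, rose by 0.34 ± 0.07 (adjusted p = 0.00854). Cdx4 had 5.25, 5.49 and 5.35 with CHIR99021, against 5.04, 4.98 and 5.05 with XAV939. The ParaHox genes Gsx1, Gsx2 and Pdx1 did not pass. Adjusted over all 34760 probe sets, Cdx4 did not pass (adjusted p = 0.0560). On XAV939 replicate 1, the array that was also high for many Hox genes, Cdx1 was higher (6.82) than on replicates 2 and 3 (6.07 and 6.10). Cdx2 was 6.21 there, against 5.85 and 6.07, whereas Cdx4 was not the highest of its group there. Whether the Cdx and Hox signals of that array go together was not tested.

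Genes of the posterior growth zone, where the trunk extends and Hox genes are switched on in turn, included 7 of 15 that rose in limma. None fell, and 1 had an unadjusted p under 0.05 downward. Of all genes 5.31% were higher, 4.34% lower and 9.4% had such an unadjusted p downward. Wnt5a rose by 1.59 ± 0.07 (SE), Sp5 by 1.35 ± 0.14, the retinoic acid-degrading enzyme gene Cyp26a1 by 1.19 ± 0.12 and Wnt8a by 0.48 ± 0.06. Wnt3a, Tbx6 and Gdf11, the last a ligand that promotes posterior Hox expression, differed by 0.11, 0.061 and 0.055 and did not pass. The median of the list was 0.22. Of 9 other homeobox genes, among which Evx1 and Evx2 lie next to a Hox cluster, 2 rose, where 5.31% of all genes did. They were Evx1 and the brain-boundary gene Gbx2 (0.33 ± 0.08, SE). Gbx2 no longer passed when CHIR99021 replicate 1 or 3 was left out (adjusted p = 0.0597 and 0.0688), nor without XAV939 replicate 2 or 3 (0.112 and 0.0667), nor over all probe sets (0.144).

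Among 16 retinoic acid genes 1 rose and 4 fell, against 5.31% of all genes higher and 4.34% lower. The other 11 missed the threshold. Retinoic acid is a classical inducer of low-numbered Hox genes. Cyp26a1 rose, while the receptor genes Rarg (-0.43 ± 0.06, SE), Rxrg (-0.38 ± 0.06) and Rara (-0.26 ± 0.07) and the binding protein gene Crabp2 (-0.37 ± 0.09) fell. The call of Rara was lost without any 1 array other than CHIR99021 replicate 3 (adjusted p = 0.0694 to 0.159), and over all probe sets (0.142). Crabp2 no longer passed when replicate 2 or 3 of either treatment was left out (0.0501 to 0.112), nor over all probe sets (0.144). None of the 8 measured TALE cofactors, which bind DNA together with Hox proteins, passed in limma. Of the 8, 3 had an unadjusted p under 0.05, where 20.6% of all genes did. They were Meis1 (-0.20 ± 0.06, SE, adjusted p = 0.0966), Pbx3 (-0.20 ± 0.07, adjusted p = 0.116) and, in the other direction, Meis2 (0.16 ± 0.06, adjusted p = 0.149).

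Of 22 Polycomb genes, whose products keep Hox clusters silent, 4 fell, 18 did not pass and 0 rose in limma, while 3 had an unadjusted p under 0.05 upward. Of all genes 11.2% had such an unadjusted p upward. The 18.2% called were all downward. Among all genes above the median signal, where 19 of the 22 lie, 704 of 9969 were called lower and 884 higher, 15.9% in either direction. The 4 Polycomb genes that fell were Phc1 (-0.93 ± 0.06, SE) of the PRC1 complex, Phf19 (-0.73 ± 0.07) and Jarid2 (-0.51 ± 0.05), partners of PRC2, and Kdm2b (-0.44 ± 0.06), a subunit of a variant PRC1. The catalytic and core genes Ezh2, Suz12, Eed and Rnf2 differed by 0.029, 0.19, 0.16 and 0.082 and did not pass. Of 11 trithorax genes and H3K27 demethylases, which act in the opposite direction on Hox chromatin, 2 fell and 0 rose in limma. One had an unadjusted p under 0.05 upward. All 11 lie above the median signal, where 704 of 9969 genes were called lower. The 2 that fell were Kmt2c (-0.57 ± 0.06, SE) and Kdm6a (-0.36 ± 0.07). Kdm6a did not pass over all probe sets (adjusted p = 0.0586). Kmt2a, the best known activator of Hox genes in this class, differed by 0.029 ± 0.054. No measurement of chromatin was analysed here.

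**Figure D5:**
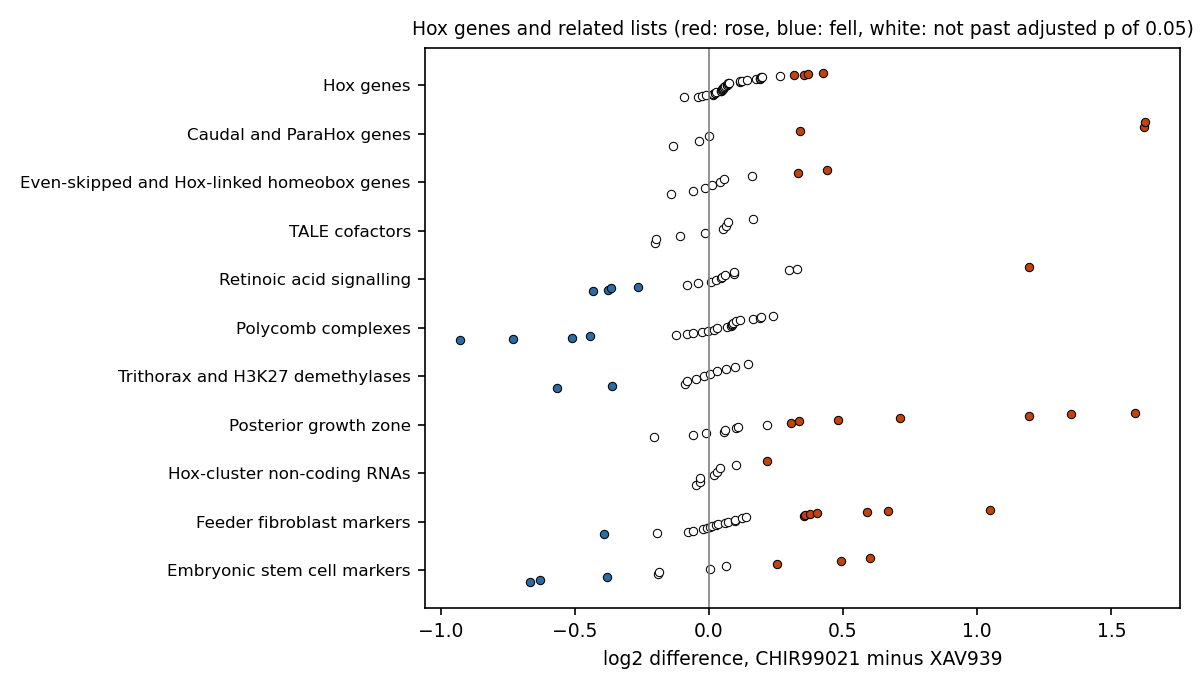
Log2 difference (CHIR99021 minus XAV939, horizontal axis) of each measured gene of the Hox family and of 10 other lists, 1 point per gene. Red points rose, blue points fell and white points did not pass an adjusted p of 0.05. The 4 Hox genes that rose lie between 0.32 and 0.42, and Cdx1 and Cdx2 near 1.6.

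Some markers of the feeder fibroblasts also changed. Of 23 measured markers 7 rose, 1 fell and 15 did not pass, against 5.31% of all genes higher and 4.34% lower. Among those that rose were Col1a1 (1.05 ± 0.05, SE), Tagln (0.67 ± 0.07), Pdgfrb (0.59 ± 0.05) and Acta2 (0.35 ± 0.05). The marker that fell was Mmp2 (-0.39 ± 0.07, adjusted p = 0.00669), which did not pass over all probe sets (0.0536). Col3a1, Thy1 and Pdgfra differed by 0.096, -0.079 and 0.12 and did not pass. The log2 of the summed signal of the 23 markers was 11.80 to 11.91 on the CHIR99021 arrays, against 11.42 to 11.48 on the XAV939 arrays. Tagln and Acta2, the brightest of the list (mean signals 9.89 and 9.47), weigh most in that sum. All 7 that rose had signals above the median of all genes. The 4 markers below the 25th percentile of signal were Lum, Dcn, Postn and Fap, with mean signals of 4.05 to 4.42. Their differences were 0.061, 0.025, 0.034 and -0.060, and none passed. The part of feeder cells in the HoxD result was not tested. In bulk RNA such as this, more cells that express a gene and more RNA of that gene per cell cannot be told apart. Of the 10 embryonic stem cell markers, 3 rose, 3 fell and 4 did not pass, with the largest differences in Utf1 (-0.67 ± 0.09, SE), Tdgf1 (-0.63 ± 0.07) and Esrrb (0.60 ± 0.06). All 10 lie above the median signal, where 884 of 9969 genes were called higher and 704 lower.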

How the data were processed

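Total RNA of 6 samples, 3 per treatment, was hybridised to 1 array each after labelling of 300 ng, per the labels' protocols. The deposited table holds a log2 signal for each probe set. The submitters' processing notes name RMA, without a version, as the authors' method. RMA corrects background, normalises by quantiles and summarises probes, and it tends to compress differences of dim probe sets. The genome build is not given in the sources used here, and no scan date was used.

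The table held 34760 probe sets, of which 21640 named 1 gene, 1321 several and 11799 none in the platform annotation. Of those with 1 gene, 21553 were found by identifier in RefSeq's table (GRCm38.p6), and 0 symbols were updated. A gene with several probe sets was represented by that with the highest mean, which gave 19937 genes. The treatments were compared with limma 3.58.1 (lmFit, eBayes) in R 4.3.3 without further normalisation or filtering, with Benjamini-Hochberg adjustment over these genes and a threshold of 0.05. Residual degrees of freedom were 4 and prior degrees of freedom 6.15. With 3 arrays per treatment, exact permutation reaches no p below 0.1 and was not used. The number of arrays limits the precision. When the procedure was tested on simulated data with the same 19937 genes and contrast, it called 46% of planted log2 differences of 0.3, 94.7% of 0.5 and 100% of 1. Far fewer genes carried a planted difference than were called in the real data, and the noise was independent between genes. Shifts shared by the genes of an array were thus absent, and these shares may not hold for the real data. Plots were drawn with matplotlib 3.10.9.

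The members and gene lists were chosen with earlier results of these data known. The lists held 137 genes, 127 of them measured. Genes named were the Hox genes past the threshold, the 3 with the smallest p in each cluster and its brightest and dimmest, up to 4 members of each list with the smallest p (2 where none passed), flanking genes that passed, the Cdx genes and Axin2. Hoxa7, Hoxd1, Hoxd3, Hoxd11, Hoxd12, Hoxd13, Hoxa10, Hoxb13 and Hoxc9, Rara, Mmp2, the list members named without passing and the other flanking genes were named after their values were seen. Alternatives were centring, repeated quantile normalisation, filters on dim genes, averaging of probe sets, other variance priors, the replicate number as a block, all probe sets, an adjusted p of 0.01 and leaving out arrays.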

Additional observations from a re-analysis of the deposited data

How the results depend on the processing

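The rises of Hoxd4, Hoxd8, Hoxd9 and Hoxd10 kept direction and call in all alternatives in which each was tested, with differences of 0.27 to 0.38 for Hoxd4, 0.31 to 0.38 for Hoxd8, 0.39 to 0.50 for Hoxd9 and 0.32 to 0.42 for Hoxd10, and the highest adjusted p values were 0.0392, 0.0152, 0.0138 and 0.0296. No Hox gene was called lower in any setting. Leaving out 1 array at a time gave 4 to 9 Hox genes higher and a median Hox difference of 0.0553 to 0.114, with the upper values without XAV939 replicate 1. Without both XAV939 replicate 1 and CHIR99021 replicate 3, an alternative chosen after seeing the data, 8 Hox genes were higher, where 5.42% of all genes were, and the median Hox difference was 0.0959. Without genes below the 50th percentile of signal only 5 Hox genes were tested and 1, Hoxd4, was higher, since the filter removes the other 3. With the replicate number as a block the count was 4 as in the fit without it, while 1578 of all genes were called against 1924. Same-numbered arrays did not deviate together (correlations of -0.0957, 0.0602 and -0.143 across genes), so the numbers were not taken as pairs. With the block Mir196a-1, Rara and Snx10 no longer passed (adjusted p = 0.0603, 0.0521 and 0.0534). Calls over all genes numbered 1254 without CHIR99021 replicate 2 and 1307 with all probe sets tested. Most Hox probe sets are dim, which limits what a missing call shows.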

Other observations

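One probe set was listed for both Hoxb8 and Hoxb7 and named no single gene. It had log2 signals of 4.82, 4.93 and 4.84 with CHIR99021, against 4.87, 4.71 and 4.68 with XAV939, a difference of 0.11 that was not tested.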
